A study of Homo sapiens with 9 samples.

Results

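The genes of the AP-1 and ATF3 transcription factor families described here were followed through the doses of TP-472 in A375 melanoma cells. They were the FOS subfamily (FOS, FOSB, FOSL1 and FOSL2), the JUN subfamily (JUN, JUNB and JUND), the ATF-type genes ATF3 and BATF3, and the small MAF gene MAFF, in all 10 of the 26475 gene symbols in the table. The genes were named one by one from these families, and related genes such as JDP2, MAFG and MAFK were placed in a list of other bZIP genes. A375 is an established human melanoma cell line that carries a BRAF mutation. The compound TP-472 inhibits the bromodomain proteins BRD9 and BRD7, which are subunits of SWI/SNF chromatin remodelling complexes. All cells were grown in DMEM with serum and were exposed for 24 h to the solvent DMSO, to 5 µM TP-472 or to 10 µM TP-472, with 3 libraries per group. The samples hold this 1 cell line, 1 compound and 1 time point, with no inactive control compound among them. The question was how each of these genes moved at each dose step.

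AP-1 is not a single protein but a set of dimers. Members of the FOS subfamily bind DNA mainly as partners of JUN proteins, whereas JUN proteins also pair with each other and with ATF proteins, through a leucine zipper next to a basic DNA-contacting region (bZIP). Many of these genes are immediate early genes, whose mRNA rises quickly and decays quickly after growth factor, cytokine or stress signals carried by MAP kinases. ATF3 is a stress-induced member of the ATF/CREB group, BATF3 is a related factor best known from dendritic cells, and MAFF lacks a transactivation domain and acts through its dimer partners. In melanoma cells with mutant BRAF, the MAP kinase ERK keeps the FOSL1 gene active.

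The RefSeq promoter windows of the 4 members that were called higher at 10 µM are shown, since these are the genes whose levels moved most. Each window is the RefSeq sequence (GRCh38.p14) from 250 bases before to 50 bases after an annotated transcription start, written 5′ to 3′ on the gene's own strand, with capitals marking matches to the motifs searched. The windows are chr1:212565157-212565456 (+) for ATF3, chr14:75278578-75278877 (+) for FOS, chr19:45467746-45468045 (+) for FOSB and chr1:58783998-58784297 (−) for JUN.
ATF3: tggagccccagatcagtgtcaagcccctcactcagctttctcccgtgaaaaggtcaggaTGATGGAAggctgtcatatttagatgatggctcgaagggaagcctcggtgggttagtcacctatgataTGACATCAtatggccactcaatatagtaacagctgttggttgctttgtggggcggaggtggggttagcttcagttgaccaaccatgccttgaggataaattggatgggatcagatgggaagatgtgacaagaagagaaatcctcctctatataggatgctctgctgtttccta
FOS: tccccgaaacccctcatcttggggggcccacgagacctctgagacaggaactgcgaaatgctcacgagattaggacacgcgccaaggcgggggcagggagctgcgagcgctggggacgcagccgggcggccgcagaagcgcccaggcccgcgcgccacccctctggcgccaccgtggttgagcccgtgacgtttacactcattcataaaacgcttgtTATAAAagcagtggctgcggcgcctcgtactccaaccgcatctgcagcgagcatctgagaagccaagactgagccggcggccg
FOSB: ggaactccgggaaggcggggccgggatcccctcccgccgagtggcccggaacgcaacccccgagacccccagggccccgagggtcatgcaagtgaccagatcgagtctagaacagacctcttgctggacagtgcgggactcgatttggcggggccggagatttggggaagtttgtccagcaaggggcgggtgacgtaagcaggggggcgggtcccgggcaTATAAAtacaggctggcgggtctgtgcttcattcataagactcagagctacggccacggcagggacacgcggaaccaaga
JUN: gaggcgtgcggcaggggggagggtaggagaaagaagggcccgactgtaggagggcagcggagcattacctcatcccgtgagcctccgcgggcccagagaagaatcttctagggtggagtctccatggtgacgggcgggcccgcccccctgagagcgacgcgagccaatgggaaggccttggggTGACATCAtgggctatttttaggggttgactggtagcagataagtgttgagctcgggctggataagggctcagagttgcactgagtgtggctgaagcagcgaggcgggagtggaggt

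The motifs were TGACTCA (the AP-1 site), TGACGTCA (the CRE, a site for CREB and ATF proteins), TGACATCA (a CRE variant), TGATGNAA (a composite site for C/EBP and ATF dimers), TATAAA, the CArG box of serum response factor and the p53 decamer, searched on both strands with the start itself as position 1 and the base before it as position −1. In ATF3 the capitals mark TGATGGAA from position −191 and TGACATCA from position −123, in FOS and FOSB they mark TATAAA from positions −33 and −30, and in JUN they mark TGACATCA from position −67. TGACATCA was present in 2.71% of all 27305 windows, TGATGNAA in 3.67% and TATAAA in 12.0%. JUNB also held TATAAA, at −31. TGACGTCA, found in 1.98% of all windows, was present in JUND at −200 and in MAFF at −54, and TGACTCA, found in 4.92%, was present in FOSL2 at position 5. The CArG box (1.29% of windows) and the p53 decamer (6.54%) had no match within the windows of the 8 members that have one. Sequence outside the windows was not searched, so the lack of a match says nothing about sites further upstream. FOSL1 and BATF3 had no entry. The window starts differ from those of the principal GENCODE transcripts for several genes. The ATF3 window lies at the upstream end of the gene, and the principal transcript begins 43263 bases further downstream, among 7 annotated start positions. For JUN the principal transcript begins 280 bases upstream of the window's start, so that the whole window lies within the transcript. For MAFF and FOS it begins 112 and 54 bases upstream, so that their matches lie within the transcript as well. The gene counts do not tell which start was used.

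The 9 libraries held 42483091 to 51298130 expected counts each, of which 8.20% to 19.9% fell on ribosomal RNA genes. Values are given as CPM, the counts of a gene scaled to a common library size with TMM factors, a method that corrects for differences in composition between libraries, so that they are relative to the other mRNAs of the cell. Markers of the labelled cell type were present in part: SOX10, a defining factor of the melanocyte lineage, stood at group means of 417, 413 and 391 CPM and MITF at 31.9, 29.8 and 29.1 CPM, whereas the pigment enzyme gene TYR was at 0 in every library and MLANA at or under 0.173 CPM on average. Of 10 tested markers of the melanocyte lineage and of melanoma, 0 were called higher at either dose (also 0 by DESeq2, by limma-voom and at an unadjusted p under 0.05), and 1 was called lower at 5 µM and 2 at 10 µM. Over all genes tested 2.14% were called higher and 2.72% lower at 5 µM, and 8.57% and 10.5% at 10 µM. The marker counts are not far from these shares. NGFR, a marker of neural crest-like melanoma cells, averaged 85.5, 41.5 and 48.7 CPM and fell by 1.04 and 0.81 on the log2 scale, and S100A1 averaged 3.11, 1.89 and 1.05 CPM and fell by 1.56 at 10 µM. Their part in the results was not tested. Of 14 markers of other cell types, CD3E was at 0 throughout and the 13 markers other than CD68 summed to 12.6 to 14.7 CPM with DMSO, 13.7 to 14.5 CPM with 5 µM and 11.8 to 17.4 CPM with 10 µM. With CD68 the sums were 67.2 to 71.2, 97.9 to 98.3 and 98.8 to 147 CPM. CD68, which encodes a lysosomal protein, was called higher at both doses and averaged 55.8, 83.9 and 105 CPM, and its part in the results was not tested. Replicate 1 of the 10 µM group stood apart from the other libraries, with 10.3% of the variance of its deviations from the group mean tied to the length and base composition of the transcripts. This share was 4.48% and 5.16% in replicates 2 and 3 of that group, and at most 0.46% in the DMSO and 5 µM libraries. The calls and list counts that it changes are given with and without it.

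A gene was called where edgeR's quasi-likelihood test gave an adjusted p under 0.05 (Benjamini-Hochberg, over the 16417 genes tested) together with a fold of 1.5 or more. All 10 members passed the filter on low counts. At 5 µM against DMSO 2 members were called higher, FOSB and ATF3, and 0 were called lower, where 2.14% of all genes tested were called higher and 2.72% lower. At 10 µM against DMSO 4 members were called higher, FOS, FOSB, JUN and ATF3, and 0 lower, against 8.57% and 10.5% of all genes. Between 10 µM and 5 µM 5 members were called higher, FOS, FOSB, JUN, ATF3 and MAFF, and 0 lower, against 1.42% and 2.59% of all genes. Counted at an unadjusted p under 0.05, 0, 1 and 0 members were lower in these comparisons, and DESeq2 and limma-voom called 0 lower in each. The median log2 fold change of the 10 members was 0.08, 0.56 and 0.54 in these comparisons, beside 0.0054, 0.011 and 0.0012 for all genes tested. The comparisons share libraries, so they are not independent of each other. As all values come from whole cultures, more mRNA per cell and a larger share of cells that carry it cannot be told apart.

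**Figure D1:**
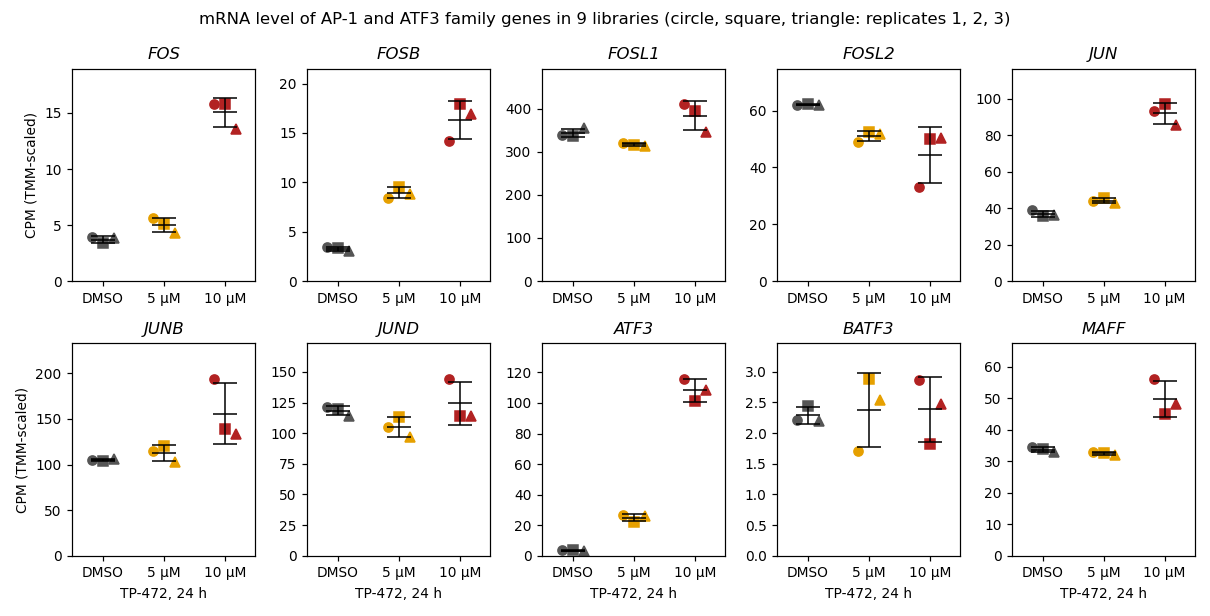
mRNA level of each of the 10 genes in CPM (TMM-scaled, linear axis from 0) in the 9 libraries, with the dose of TP-472 on the x axis; points are single libraries (circle, square and triangle for replicates 1, 2 and 3) and black bars give the mean ± SD (n = 3). ATF3 and FOSB step up at each dose, FOS and JUN step up mainly at 10 µM, and BATF3 stays between 1.71 and 2.89 CPM. In CPM the step to 10 µM is the larger one for ATF3 and FOSB too.

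Within the FOS subfamily, FOS and FOSB rose, while FOSL1 and FOSL2 were not called in any comparison. FOS, the prototype immediate early gene, lies on chromosome 14 (chr14:75278774-75282230, plus strand, GRCh38) and was measured at 3.90, 3.35 and 3.83 CPM with DMSO, at 5.61, 5.09 and 4.31 CPM with 5 µM and at 15.8, 15.8 and 13.6 CPM with 10 µM. The 5 µM libraries lay just above the DMSO libraries and the 10 µM libraries far above both, with no overlap between groups. At 5 µM the log2 fold change of 0.44 ± 0.14 (SE) did not pass the test (edgeR adjusted p = 0.0829), and at 10 µM FOS rose 4.08-fold (95% interval 3.27 to 5.08, edgeR adjusted p = 6.12e-06).

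FOSB (chr19:45467995-45475179, plus strand), whose protein pairs with JUN proteins as FOS does and whose promoter window also holds TATAAA, responded at the lower dose already. Its levels were 3.44, 3.33 and 3.03 CPM with DMSO, 8.43, 9.53 and 8.87 CPM with 5 µM and 14.2, 17.9 and 16.9 CPM with 10 µM. The 3 groups did not overlap and stood in the order of the dose. FOSB rose 2.74-fold at 5 µM (95% interval 2.24 to 3.34, edgeR adjusted p = 0.000135) and 4.99-fold at 10 µM (95% interval 4.08 to 6.10, edgeR adjusted p = 1.53e-06). Symbol-level counts do not separate FOSB from its truncated splice form.

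FOSL1, which encodes FRA1, the FOS-type protein associated with ERK signalling and invasive melanoma, was the most abundant member in every group. It stood at 339, 336 and 354 CPM with DMSO, at 321, 315 and 314 CPM with 5 µM and at 411, 394 and 346 CPM with 10 µM. The 5 µM libraries were all below the DMSO libraries, and the 10 µM libraries overlapped the DMSO range. On the log2 scale it differed from DMSO by −0.12 ± 0.07 at the lower and 0.16 ± 0.07 at the higher dose (edgeR adjusted p = 0.405 and 0.123), and the 95% interval at 10 µM ran from 1.00-fold to 1.26-fold. Between the doses the difference of 0.28 passed the p limit (edgeR adjusted p = 0.0492) without reaching the fold limit.

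FOSL2, which encodes FRA2, was the only member with a negative log2 fold change at 10 µM. It stood at 61.9, 62.3 and 62.1 CPM with DMSO, at 48.9, 52.6 and 51.6 CPM with 5 µM and at 33.1, 50.1 and 50.3 CPM with 10 µM. All 6 treated libraries were below the 3 DMSO libraries, and the lowest was replicate 1 of the 10 µM group. The log2 fold change at 10 µM was −0.48 ± 0.14 (edgeR adjusted p = 0.0241), which is under the fold limit, and without that library it was −0.31 ± 0.05 (edgeR adjusted p = 0.000186).

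Of the JUN subfamily, JUN rose and JUNB and JUND were not called. JUN (chr1:58780788-58784327, minus strand) is a gene of a single exon whose product is the main partner of FOS proteins and whose window shown above holds the TGACATCA match. Its levels were 39.0, 35.6 and 36.4 CPM with DMSO, 44.0, 45.6 and 42.7 CPM with 5 µM and 93.2, 97.3 and 85.9 CPM with 10 µM. The groups did not overlap, with a small step to 5 µM and a larger one to 10 µM. At 5 µM the log2 fold change of 0.25 ± 0.08 did not pass the test (edgeR adjusted p = 0.0684), and at 10 µM JUN rose 2.49-fold (95% interval 2.21 to 2.81, edgeR adjusted p = 2.01e-06).

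JUNB (chr19:12791496-12793315, plus strand), often described as a weaker activator than JUN, was measured at 105, 103 and 107 CPM with DMSO, at 115, 120 and 103 CPM with 5 µM and at 194, 139 and 133 CPM with 10 µM. The 10 µM libraries all lay above the other 6, and replicate 1 was the highest by a wide margin. The fold at 10 µM was 1.48 (95% interval 1.21 to 1.82, edgeR adjusted p = 0.00862), just under the fold limit, and without replicate 1 of the 10 µM group it was 1.30. Of the exonic sequence of JUNB, 14.2% overlaps HOOK2 on the opposite strand.

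JUND, which is expressed in most resting cells, was measured at 121, 120 and 114 CPM with DMSO, at 105, 114 and 97.2 CPM with 5 µM and at 144, 114 and 114 CPM with 10 µM. The 5 µM libraries lay at or below the DMSO range and the 10 µM libraries at or above its lower end, and the single high value was again replicate 1 of the 10 µM group. The log2 fold change at 10 µM was 0.07 ± 0.10 (edgeR adjusted p = 0.639) and −0.05 ± 0.06 without that library. The 95% interval with all libraries ran from 0.90-fold to 1.23-fold.

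ATF3 had the largest change of the 10 genes at both doses. It lies on chromosome 1 (chr1:212565334-212620777, plus strand) and was measured at 3.64, 3.66 and 2.79 CPM with DMSO, at 26.5, 22.1 and 26.2 CPM with 5 µM and at 116, 101 and 108 CPM with 10 µM. The 3 groups were separated by several-fold gaps, wider than the spread within any group. ATF3 rose 7.39-fold at 5 µM (95% interval 6.06 to 9.0, edgeR adjusted p = 3.62e-06) and 32.1-fold at 10 µM (95% interval 26 to 39.6, edgeR adjusted p = 3.87e-08). Among the 16417 genes tested its log2 fold change ranked 62nd from the largest rise at 5 µM and 39th at 10 µM. Without replicate 1 of the 10 µM group the fold at 10 µM was 30.8.

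BATF3 lies 65641 bases from ATF3 on the opposite strand (chr1:212686418-212699985) and did not follow it. It was measured at 2.21, 2.45 and 2.20 CPM with DMSO, at 1.71, 2.89 and 2.55 CPM with 5 µM and at 2.87, 1.83 and 2.47 CPM with 10 µM. The 3 groups overlapped fully. The fold at the higher dose, 1.04, had 0.70 to 1.57 as its 95% interval (edgeR adjusted p = 0.886), so that at this level a change of up to about this size was not detectable. In all, 7 genes within 250 kb of ATF3 were tested and 0 of them were called in either direction at 10 µM by edgeR, DESeq2 or limma-voom, with 3 at an unadjusted p under 0.05. Over all genes 8.57% were called higher and 10.5% lower at that dose, and a count of 0 among 7 genes is not far from these shares. Within the same distance of JUN 0 of 2 tested genes were called by any of these tools or had an unadjusted p under 0.05, and within that of FOS 1 of 6, MLH3, a mismatch repair gene with group means of 0.79, 1.57 and 2.01 CPM. Near FOSB 0 of 18 tested genes were called higher and 1 lower. Near the members that were not called at 10 µM, the numbers called higher and lower were 5 and 1 of 13 for JUND, 3 and 2 of 23 for JUNB, 1 and 2 of 21 for FOSL1, 1 and 0 of 10 for MAFF, 1 and 0 of 5 for BATF3 and 0 and 0 of 1 for FOSL2. The gene called near BATF3 is ATF3 itself, and BATF3 is among the 7 genes counted near ATF3.

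MAFF (chr22:38200767-38216511, plus strand) was called higher between the doses and not against DMSO. Its levels were 34.4, 33.9 and 32.9 CPM with DMSO, 32.9, 32.6 and 31.9 CPM with 5 µM and 56.2, 45.01 and 48.1 CPM with 10 µM. The DMSO and 5 µM libraries lay together, and all 10 µM libraries were above them. The fold at 5 µM was 0.96 (95% interval 0.84 to 1.11, edgeR adjusted p = 0.792), and MAFF rose 1.53-fold from 5 µM to 10 µM (95% interval 1.33 to 1.76, edgeR adjusted p = 0.00317). Against DMSO the fold at 10 µM was 1.48 (edgeR adjusted p = 0.00115), just under the fold limit. Without replicate 1 of the 10 µM group the fold between the doses was 1.43 (edgeR adjusted p = 1.74e-05), which is under the fold limit too. In that fit 4 members were called higher and 0 lower in that comparison, beside 1.91% and 3.27% of all genes.

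**Figure D2:**
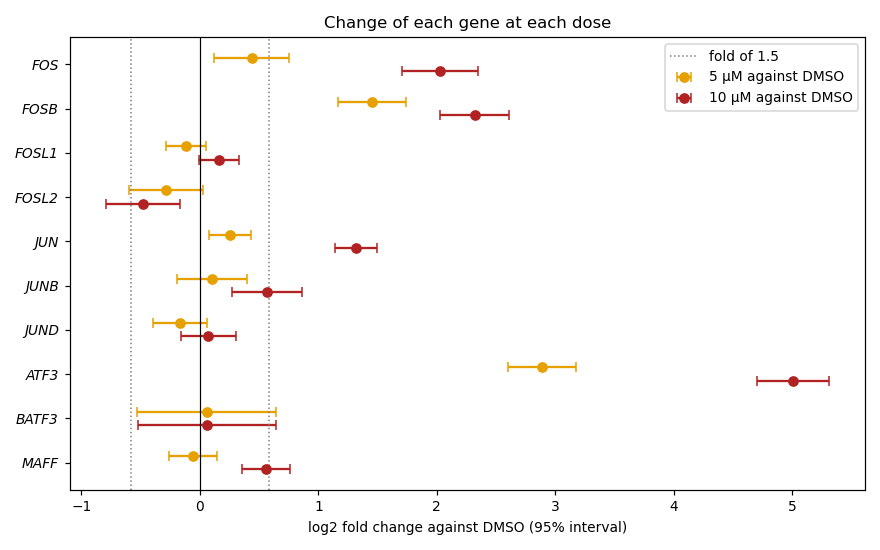
Log2 fold change against DMSO of each gene at 5 µM and 10 µM TP-472 (x axis; points with 95% intervals from the edgeR fit), with dotted lines at a fold of 1.5 in either direction. ATF3 reaches 2.88 and 5.00, FOSB, FOS and JUN lie at 2.32, 2.03 and 1.32 at 10 µM, and the point of JUNB and that of MAFF fall just inside the dotted line.

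The share of the change that lay in the first dose step is given as a description for the 4 members that rose, with no test between members. For ATF3 57.6% of the log2 change at 10 µM was already present at 5 µM, and for FOSB 62.6%. For FOS the share was 21.6% and for JUN 19.3%. These shares depend on the log2 scale. In CPM the group means were 3.36, 24.9 and 108 for ATF3 and 3.27, 8.94 and 16.3 for FOSB. On that scale the second step was the larger one for all 4 members. The steps of ATF3 were 2.88 ± 0.13 and 2.12 ± 0.12 on the log2 scale, those of FOSB 1.45 ± 0.13 and 0.87 ± 0.12, those of FOS 0.44 ± 0.14 and 1.59 ± 0.14, and those of JUN 0.25 ± 0.08 and 1.06 ± 0.08. Whether the steps differed in size was tested as the second step minus the first step, for which an adjusted p under 0.05 was taken as a call with no fold limit. By this test 1 member was called higher, JUN, and 0 lower, where 0.158% of all genes were called higher and 0.298% lower.

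For JUN the second step exceeded the first by 0.81 ± 0.14 on the log2 scale (edgeR adjusted p = 0.0386). This call was lost when any DMSO library (adjusted p = 0.126 to 0.157), any 5 µM library (adjusted p = 0.190 to 0.296) or replicate 2 of the 10 µM group (adjusted p = 0.0673) was left out, and with the replicate number as a block (adjusted p = 0.104, all by edgeR). The difference was 1.15 for FOS (edgeR adjusted p = 0.1004), 0.67 for MAFF (0.143), −0.58 for FOSB (0.422) and −0.76 for ATF3 (0.193). Without replicate 1 of the 10 µM group FOS (1.12), JUN (0.80), MAFF (0.57) and FOSL1 (0.34) were called higher and ATF3 (−0.81, edgeR adjusted p = 0.00528) was called lower.

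**Figure D3:**
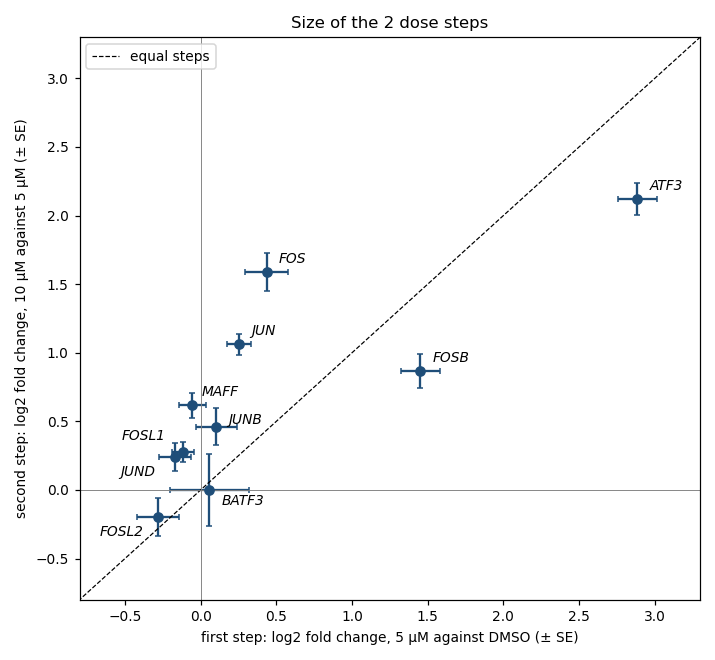
Size of the dose steps of each gene, as log2 fold change from DMSO to 5 µM (x axis) and from 5 µM to 10 µM (y axis), each with its SE; the dashed line marks equal steps. ATF3 and FOSB lie below the line, and FOS, JUN and MAFF above it, with JUN at 0.25 and 1.06.

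Per kilobase of the longest annotated transcript, which allows levels of different genes to be set side by side, the order of the members changed with dose mainly through ATF3. With DMSO the order was FOSL1 (205 ± 5.73 CPM per kb, mean ± SD, n = 3), JUND (63.5 ± 2.11), JUNB (57.7 ± 0.84), JUN (10.4 ± 0.50), MAFF (10.3 ± 0.24), FOSL2 (9.26 ± 0.03), FOS (1.71 ± 0.14), ATF3 (1.60 ± 0.24), BATF3 (0.97 ± 0.06) and FOSB (0.87 ± 0.06). JUN and MAFF, and likewise FOS and ATF3, lay within their spread of each other. At 5 µM ATF3 stood at 11.9 ± 1.16 CPM per kb, within its spread of JUN (12.5 ± 0.41), and FOS and FOSB were alike at 2.32 ± 0.30 and 2.37 ± 0.15. At 10 µM ATF3 came next after the 3 highest members at 51.5 ± 3.54 CPM per kb, namely below FOSL1 (230 ± 19.9), JUNB (85.5 ± 18.4) and JUND (66.7 ± 9.36) and above JUN (26.02 ± 1.63) and MAFF (15.2 ± 1.76). JUNB and JUND lay within their spread of each other there, as did FOS (6.98 ± 0.59) and FOSL2 (6.63 ± 1.47), and FOSB (4.32 ± 0.52) and BATF3 (1.01 ± 0.22) were the lowest.

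**Figure D4:**
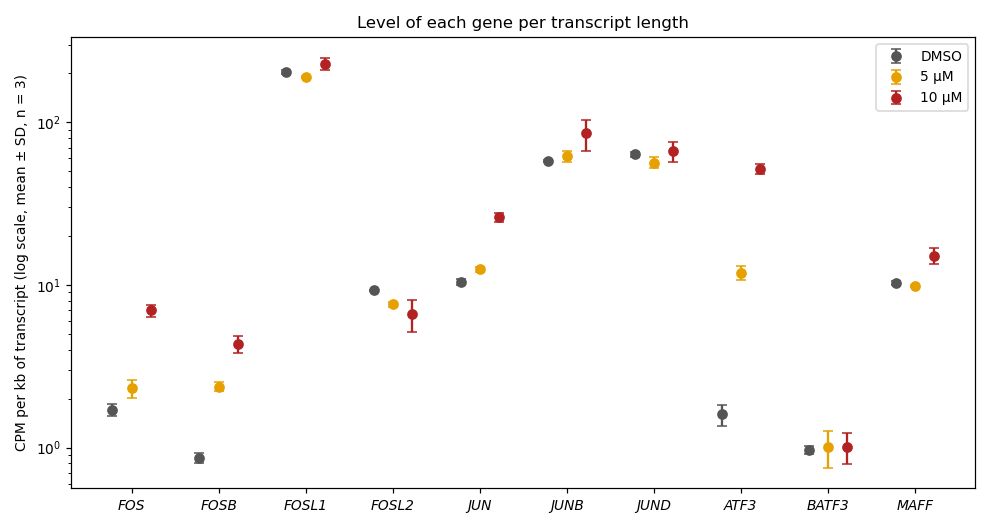
Level of each gene in CPM per kb of transcript (log axis; mean ± SD of 3 libraries) with DMSO, 5 µM and 10 µM TP-472. FOSL1 is highest in every group, at 205, 190 and 230 CPM per kb, and ATF3 moves from 1.60 to 51.5.

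The makeup of the FOS and JUN pools was taken on the same per-length scale, as a description with no test. FOSL1 made up 94.5% ± 0.14 of FOS subfamily mRNA with DMSO, 93.9% ± 0.20 with 5 µM and 92.7% ± 1.04 with 10 µM (SD, n = 3). FOS went from 0.79% to 1.15% and 2.82%, and FOSB from 0.40% to 1.17% and 1.76%, each the mean of 3 libraries. JUN made up 7.93% ± 0.29, 9.53% ± 0.40 and 14.8% ± 2.09 of JUN subfamily mRNA, while JUND went from 48.3% to 43.1% and 37.5% and JUNB stood at 43.8%, 47.3% and 47.7%. The summed level was 217 ± 5.75, 202 ± 2.31 and 248 ± 19.3 CPM per kb for the FOS subfamily and 132 ± 1.92, 131 ± 9.48 and 178 ± 28.2 CPM per kb for the JUN subfamily. The JUN subfamily sums at 10 µM were 211, 166 and 159 CPM per kb, with replicate 1 the highest and all 3 above the other 6 libraries.

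Short-lived mRNAs of this class often carry AU-rich elements in the 3′ UTR, and the principal transcripts of all members held the core ATTTA at least once. FOSL2 had 9 copies, FOS 5, MAFF 4, and FOSB, JUN and ATF3 had 3 each, while JUNB had 2 and FOSL1, JUND and BATF3 had 1. In all, 6 of the 10 members had at least 3 copies, against 36.7% of 18543 coding genes. The longer form TTATTTATT was present in FOS, FOSL2 and MAFF, against 7.42% of coding genes. Copies were not scaled to the length of the 3′ UTR, which was 4864 bases in FOSL2 and 806 in FOS. The median over coding genes was 848 bases. A tie between copy number and response was not tested.

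Genes that moved most like the 4 risers were found as those with the smallest root mean square difference of log2 CPM over the 9 libraries, each gene centred on its DMSO mean. For ATF3 they were ARC (0.44), an immediate early gene of neurons, the cytokine gene IL24 (0.46) and ZNF114 (0.51). For FOSB they were SESN2 (0.19), a stress-induced sestrin gene, the antiproliferative gene BTG2 (0.23) and KITLG (0.23), which encodes the ligand of KIT. For FOS they were CTGF (0.16), which encodes a matricellular protein, GADD45B (0.20) and PPP1R15A (0.23), both stress-response genes. For JUN they were CYR61 (0.12), a relative of CTGF, the asparagine synthetase gene ASNS (0.15) and SQSTM1 (0.16), which encodes an autophagy receptor.

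Of 11 tested bZIP genes of AP-1 and MAF type outside the 10 members, 1 was called higher at 5 µM, MAF (2.14% of all genes), and at 10 µM 3 were called higher and 1 lower (8.57% and 10.5% of all genes) and 7 were not called, around a median of 0.41 on the log2 scale. MAF, a large MAF factor, averaged 12.3, 21.4 and 25.1 CPM and rose by 1.02 at 10 µM on the log2 scale (edgeR adjusted p = 2.37e-05). MAFK, a small MAF factor like MAFF, averaged 56.1, 74.0 and 90.6 CPM and rose by 0.69. The gene that was lower was NFE2, a partner of small MAF proteins, at 8.42, 4.82 and 3.55 CPM. Between the doses 1 of these genes was called higher and 0 lower (1.42% and 2.59% of all genes). Without replicate 1 of the 10 µM group 4 of these genes were called higher and 1 lower at 10 µM. In that fit 1 was called higher and 1 lower at 5 µM (3.43% and 3.98% of all genes). Between the doses 3 were called higher and 1 lower in it (1.91% and 3.27% of all genes).

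Of 14 CREB, ATF and C/EBP genes, 1 was called higher at 5 µM (2.14% of all genes), and 4 were called higher and 1 lower at 10 µM (8.57% and 10.5% of all genes), with 0.37 as the median log2 fold change. DDIT3, which encodes the stress factor CHOP, averaged 9.67, 16.1 and 76.2 CPM and rose by 2.98 at 10 µM (edgeR adjusted p = 3.42e-06). Its 10 µM libraries stood at 102, 60.2 and 66.1 CPM, all well above the rest, with replicate 1 the highest. CEBPG (22.3, 24.5 and 38.4 CPM) and XBP1 (42.4, 44.6 and 69.2 CPM), factors of the amino acid and unfolded protein responses, rose by 0.78 and 0.71. CREM was the other gene called higher, and CEBPD, at 11.8, 6.37 and 4.64 CPM, was the gene called lower. ATF4 averaged 218, 196 and 305 CPM and was called higher between the doses. Its log2 fold change of 0.48 at 10 µM passed the adjusted p limit (edgeR adjusted p = 0.0086) but not the fold limit. Between the doses 5 genes of the list were called higher (1.42% of all genes). Without replicate 1 of the 10 µM group 2 were called higher and 1 lower between the doses, and 3 higher and 1 lower at 10 µM. In that fit 1 was called higher and 2 lower at 5 µM (3.43% and 3.98% of all genes).

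Of 20 tested MAP kinase genes that signal to AP-1, 0 were called in either direction by edgeR at 5 µM (5 at an unadjusted p under 0.05; 1 lower by DESeq2 and 0 by limma-voom), and at 10 µM 1 was called higher and 2 lower (median log2 fold change −0.13). The edgeR counts at 10 µM are near the share over all genes, of which 8.57% were called higher and 10.5% lower. At an unadjusted edgeR p under 0.05, 4 were higher and 7 lower at that dose. DESeq2 and limma-voom each called 1 higher and 3 lower there. MAP2K3, a kinase upstream of p38, averaged 53.8, 74.2 and 105 CPM and rose by 0.97. MAPK3, which encodes ERK1, averaged 57.9, 40.1 and 32.2 CPM and fell by 0.85 on the log2 scale. MAP3K1 averaged 30.5, 19.2 and 13.1 CPM and fell by 1.22, with its lowest value of 7.35 CPM in replicate 1 of the 10 µM group. Without that library 0 of the 20 genes were called higher and 1 lower at 5 µM (3.43% and 3.98% of all genes).

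Of 10 genes for MAP kinase phosphatases, which switch these kinases off, 3 were called higher and 0 lower at 5 µM, and 5 higher and 0 lower at 10 µM (median log2 fold change 0.75). Over all genes the shares called higher were 2.14% and 8.57%, and those called lower 2.72% and 10.5%. DUSP10, which acts on JNK and p38, averaged 10.5, 19.9 and 37.3 CPM and rose by 1.83 at 10 µM (edgeR adjusted p = 1.48e-06). DUSP14 averaged 32, 49.1 and 78.3 CPM and rose by 1.29. DUSP1, itself an immediate early gene, averaged 12.3, 17.3 and 28.6 CPM and rose by 1.22. The other genes called higher were DUSP5 and DUSP8. At an unadjusted edgeR p under 0.05, 4 were higher and 1 lower at 5 µM, and 5 higher and 2 lower at 10 µM. Those lower at 10 µM were DUSP4 (662, 713 and 485 CPM, −0.45 on the log2 scale) and DUSP6 (235, 211 and 176 CPM, −0.41). Both passed the adjusted p limit at 10 µM (edgeR adjusted p = 0.000307 and 0.000987) but not the fold limit. The 5 genes called at 10 µM remained 5 in number without replicate 1 of that group, while between the doses the number called higher went from 4 to 2. The share of all genes called higher between the doses was 1.42% with that library and 1.91% without it.

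Of 14 genes for factors that act on the FOS and JUN promoters, such as serum response factor and its partners, 0 were called higher at either dose by edgeR, DESeq2 or limma-voom (1 at each dose at an unadjusted p under 0.05) and 1 was called lower at 10 µM (median log2 fold change −0.19). With 8.57% and 10.5% of all genes called higher and lower at that dose, the counts of called genes are near the share over all genes. At an unadjusted edgeR p under 0.05, 2 were lower at 5 µM and 7 at 10 µM. CREB1 (−0.46) and ELK3 (−0.31) passed the adjusted p limit at 10 µM but not the fold limit. The gene called lower was SP1, at group means of 127, 95.2 and 68.7 CPM, whose 10 µM libraries stood at 47.9, 82.2 and 76.0 CPM with replicate 1 the lowest. Of 10 genes for turnover of FOS and JUN mRNA and protein, 2 were called higher and 0 lower at 10 µM, beside the same shares over all genes, while the list's median was −0.26 on the log2 scale. At an unadjusted edgeR p under 0.05, 2 of them were higher and 6 lower at that dose. KHSRP (−0.45), ZFP36L1 (−0.42), HNRNPD (−0.36), ELAVL1 (−0.27) and ZFP36L2 (−0.26) passed the adjusted p limit at 10 µM but not the fold limit. ZFP36, which encodes a protein that binds AU-rich elements and promotes mRNA decay, averaged 11.9, 15.4 and 24.2 CPM and rose by 1.02. FBXW7, a ubiquitin ligase subunit that targets JUN, averaged 13.3, 19.5 and 26.5 CPM and rose by 0.99.

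Genes known as AP-1 targets moved in both directions. Of 30 tested, 8 were called higher and 4 lower at 5 µM, 12 higher and 7 lower at 10 µM, and 9 higher and 0 lower between the doses, and the median log2 fold change at 10 µM was −0.24. Over all genes 2.14% and 2.72% were called higher and lower at 5 µM, 8.57% and 10.5% at 10 µM, and 1.42% and 2.59% between the doses. IL24 averaged 15.4, 86.5 and 311 CPM and rose by 4.34 at 10 µM (edgeR adjusted p = 3.87e-08), and MMP1, a collagenase gene, averaged 7.46, 16.6 and 37.4 CPM and rose by 2.33. CXCL8, which encodes interleukin-8, averaged 378, 212 and 178 CPM and fell by 1.08. MMP9, another matrix metallopeptidase gene, was among those called lower, at 43.3, 10.1 and 7.07 CPM, and the epidermal growth factor receptor ligand genes AREG (19.8, 35.5 and 77.7 CPM) and HBEGF (11.9, 17.1 and 27.8 CPM) were among those called higher; these 3 were chosen after their values were seen. Without replicate 1 of the 10 µM group, 10 of the 30 were called higher and 7 lower at 10 µM, and 8 higher and 2 lower between the doses, where limma-voom called 1 lower with all libraries.

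**Figure D5:**
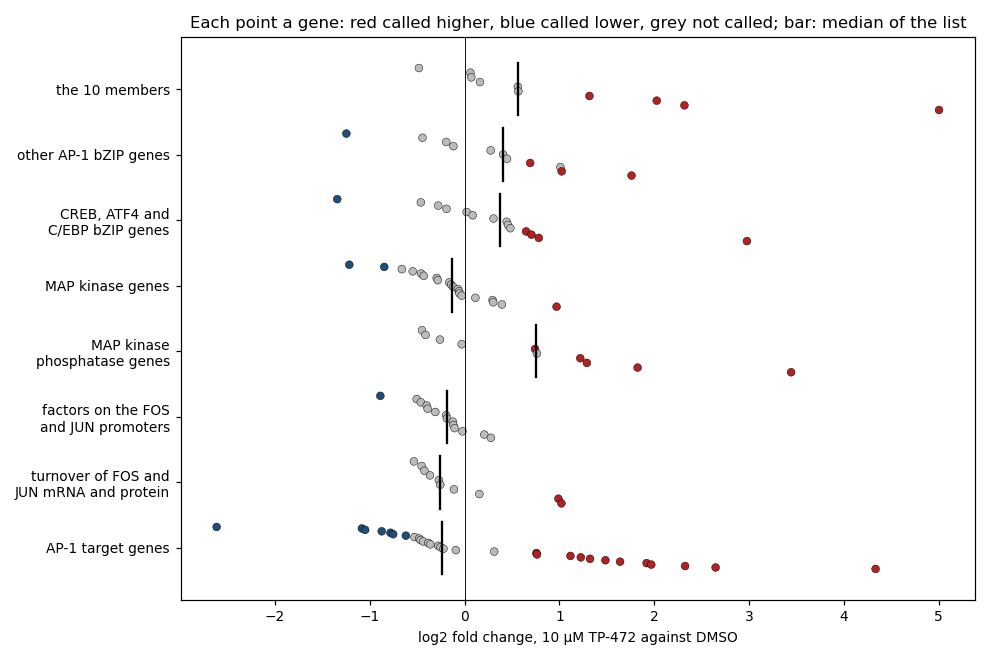
Log2 fold change at 10 µM TP-472 against DMSO (x axis) of each tested gene in the 10 members and in the lists of related genes (rows); red points were called higher, blue lower and grey not called, and the black bar is the median of the list. The medians run from −0.26 for turnover genes to 0.75 for MAP kinase phosphatase genes, with 0.56 for the members.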

How the data were processed

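RNA of A375 cells was sequenced on an Illumina HiSeq. The labels name oligo-dT beads and dUTP strand-specific libraries, the series text names ribosomal RNA depletion, and the sources used here do not say whether strand entered the counting. The authors deposited expected counts per gene symbol, not scaled to library size; the submitters' processing notes name Bowtie2 2.1.0, RSEM 1.2.15 and hg38. In each library 10.6% to 13.8% of values were not whole, and all were rounded.

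One edgeR 4.0.16 fit (R 4.3.3) over the 9 libraries used TMM factors (0.957 to 1.03), filterByExpr (16417 genes) and quasi-likelihood testing; p-values were adjusted over all tested genes by the Benjamini-Hochberg method. The standard error is the log2 fold change over the square root of F. The replicates are described as biological, with no further detail, and p-values measure the spread between these libraries. DESeq2 1.42.0 and limma 3.58.1 served as alternatives, and scripts were tested on simulated data. Gene positions, lengths (the longest transcript) and 3′ UTRs (the principal transcript) come from GENCODE annotation of GRCh38. Python 3.11.15 and matplotlib 3.10.9 made tables and figures.

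The members and gene lists were chosen with earlier results of these data known. Genes named are all members, from each list the 3 genes with the smallest p at 10 µM among those called, and for the 4 members that changed most at 10 µM the 3 tested genes with the closest profile and a mean of at least 1 CPM. Names beyond these spell out small counts and were chosen after their values were seen. Values of some genes in these lists are not reported here. One list of bZIP protein regions was planned and was not analysed here.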

Additional observations from a re-analysis of the deposited data

How the results depend on the processing

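The calls of FOS, FOSB, JUN and ATF3 at 10 µM, and of FOSB and ATF3 at 5 µM, held under all alternatives tried (other scaling, other filters, DESeq2, limma-voom, length and GC trend removed, the replicate block, fold limits, each library left out and, chosen after seeing the data, ribosomal RNA genes left out). JUNB and MAFF lie at the fold limit: both were called at 10 µM with upper-quartile scaling (0.61 and 0.60), without replicate 2 (0.63 and 0.62) or 3 (0.67 and 0.59) of the 10 µM group and with no fold limit, JUNB with a minimum of 1 CPM in 3 libraries (0.59) and MAFF with the length and GC trend removed (0.67). Members called higher at 10 µM thus ranged from 4 to 6. With no fold limit FOSL2 was the 1 member called lower at 10 µM, and with a fold of at least 2 the members called higher between the doses were 3.

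The test of unequal steps depended most on the setting. Members called higher and lower were 3 and 1 with DESeq2, 2 and 1 with the length and GC trend removed, 2 and 0 with that trend removed and a replicate block, 0 and 0 with the replicate block alone, and 0 to 4 and 0 to 1 with a library left out. ATF3 was the member called lower with DESeq2 (adjusted p = 0.0297) and with the trend removed (edgeR adjusted p = 0.0328). The cause was not tested.

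Directions turned only where the value was near 0. BATF3 between the doses was −0.0073 without a filter, −0.0084 with limma-voom, −0.11 with the trend removed, −0.091 with a block added, and −0.19 to 0.16 with a library left out; at 10 µM it was −0.084 with the trend removed, −0.077 with a block added, and −0.10 to 0.22 with a library left out. With a library left out BATF3 ran from −0.10 to 0.25 at 5 µM and from −0.44 to 0.26 for the second step minus the first, JUND at 10 µM from −0.054 to 0.13, and FOSL2 for the second step minus the first from −0.014 to 0.26. MAFF at 5 µM was 0.0092 with the trend removed and 0.0089 with a block added. Counts not divided by length gave FOSL1 83.2%, 83.0% and 83.4% of the FOS subfamily and JUN 14.2%, 16.8% and 25.0% of the JUN subfamily with DMSO, 5 µM and 10 µM.

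Libraries with the same replicate number did not deviate together: of 9 pairs across groups, 0 had a correlation over 0.1 (−0.049 to 0.032). With 3 libraries per group this cannot show that the numbers carry no shared culture or batch, and how they were given is not stated. With the replicate block 2, 4 and 5 members were called higher at 5 µM, at 10 µM and between the doses, as without it. At the 2.29 CPM of BATF3 with DMSO the 95% interval of the fold at 10 µM spans 0.70 to 1.57, and smaller changes of such a gene cannot be seen.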
